A study of Mus musculus with 24 samples.

Results

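*Gfap*, *Vim*, *Nes* and *Synm* encode the intermediate filament proteins by which astrocytes are commonly recognised. These 4 genes were picked by symbol among the 49315 genes counted in each of 24 RNA-seq libraries of irradiated primary murine cortical astrocytes. Their messenger RNA levels were followed over 6 groups, which were cells exposed to 0 Gy (mock irradiation), 0.1 Gy or 2 Gy X-rays and harvested after 6 h or 24 h, with 4 libraries per group. All groups were C57BL/6J wild type. The cells came from the brain cortex of late-stage embryos, the embryos of a pregnant mouse having been pooled, so the cultures hold whatever other cell types grew with the astrocytes. The experiment asked how astrocytes respond to a low and a higher dose of X-rays.

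Intermediate filaments are rope-like polymers that give a cell mechanical strength and anchor its organelles. Vimentin (*Vim*) is the type III filament protein of immature astrocytes and of many mesenchymal cells, and glial fibrillary acidic protein (*Gfap*) is the type III protein that joins it as astrocytes mature. Nestin (*Nes*) is a long type IV protein of neural progenitors and cultured astrocytes that polymerises only together with a partner such as vimentin, and synemin (*Synm*) likewise needs a partner and links the network to other parts of the cell. More GFAP, vimentin and nestin is a widely used sign of reactive astrocytes, the state these cells enter after injury of the brain.

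On the mouse build GRCm38, *Gfap* (ENSMUSG00000020932) was listed on the minus strand at chr11:102887336-102900912, *Vim* (ENSMUSG00000026728) on the plus strand at chr2:13573927-13582826, *Nes* (ENSMUSG00000004891) on the plus strand at chr3:87971078-87980451 and *Synm* (ENSMUSG00000030554) on the minus strand at chr7:67730160-67759742. The exonic lengths in the files were 4218 bases for *Gfap*, 4743 for *Vim*, 6416 for *Nes* and 7933 for *Synm*. The GC content of the longest annotated transcript was 55.5% for *Gfap* and *Nes*, 51.4% for *Synm* and 46.5% for *Vim*. On the opposite strand, *Synm* shared 84 exonic bases with *Ttc23* and 426 with *Gm45102*, and *Gfap* lay within the span of *Gm26668* with no shared exonic base. Whether the counting used strand is not stated, so reads in the shared bases cannot be assigned with certainty. Per library, *Ttc23* had 167 to 771 counts, *Gm45102* at most 22 and *Gm26668* at most 44.

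Total counts per library ranged from 14742855 to 38194800. Of the 12 astrocyte markers chosen, 11 had a mean of at least 1 CPM (counts per gene scaled to a common library total), and the connexin gene *Gjb6* did not. The microglia markers were also present, all 12 of them at a mean over 1 CPM, with a summed level from 326 to 385 CPM in the 6 libraries that carry replicate number 2 and from 1890 to 3254 CPM in the other 18. Of the 12 neuron markers 6 had a mean under 1 CPM, the defining genes *Rbfox3*, *Snap25* and *Dcx* among them, while the list summed to between 409 and 742 CPM, mostly from *Map2* and *Stmn2* (means of 223 and 214 CPM). The smooth muscle and fibroblast genes summed to between 3523 and 7840 CPM, mostly from *Acta2*. Libraries of the same replicate number deviated together within a time point, so each dose comparison below is given without the replicate number and, where it changes a call, with the number as a block. In bulk RNA, a smaller share of a cell type and less RNA per cell cannot be told apart.

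The 4 genes were expressed at very different levels, and in the same order in every library. Per kb of exonic length, the mean over the 24 libraries was 1318 CPM per kb for *Vim* (SD 168), 238 for *Nes* (SD 43.7), 123 for *Gfap* (SD 29.9) and 6.89 for *Synm* (SD 1.25). By this measure *Vim* ranked 21st, *Nes* 127th, *Gfap* 311th and *Synm* 6681st of all genes. *Vim* exceeded *Nes* in 24 of 24 libraries, by 3.99- to 8.25-fold. *Nes* exceeded *Gfap* in 24 of 24 libraries, by 1.30- to 3.08-fold, although their ranges over all libraries met, with 141 to 329 CPM per kb for *Nes* and 81.4 to 189 for *Gfap*. *Gfap* exceeded *Synm* by 9.95- to 46.2-fold. Behind these levels stood 68393 to 273586 counts per library for *Vim* and 689 to 2649 for *Synm*, so counting error was small beside the spread between libraries.

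The remaining intermediate filament genes were lower than *Vim*, *Nes* and *Gfap*. Among 22 other genes of the family, the nuclear lamin gene *Lmna* was the most abundant at 40.8 CPM per kb, followed by the lamin gene *Lmnb1* at 15.7. *Synm* lay below *Lmna*, *Lmnb1* and the relatives *Iffo2*, *Sync* and *Iffo1* (10.1, 9.24 and 7.73 CPM per kb). The neuronal genes *Nefl* and *Ina* averaged 0.0281 and 0.110 CPM per kb, the muscle gene *Des* 0.191, and the epidermal keratin genes *Krt5* and *Krt14* 0.0105 and 0.00775. Among the 26 genes, *Vim*, *Nes* and *Gfap* thus stood above all others.

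**Figure D1:**
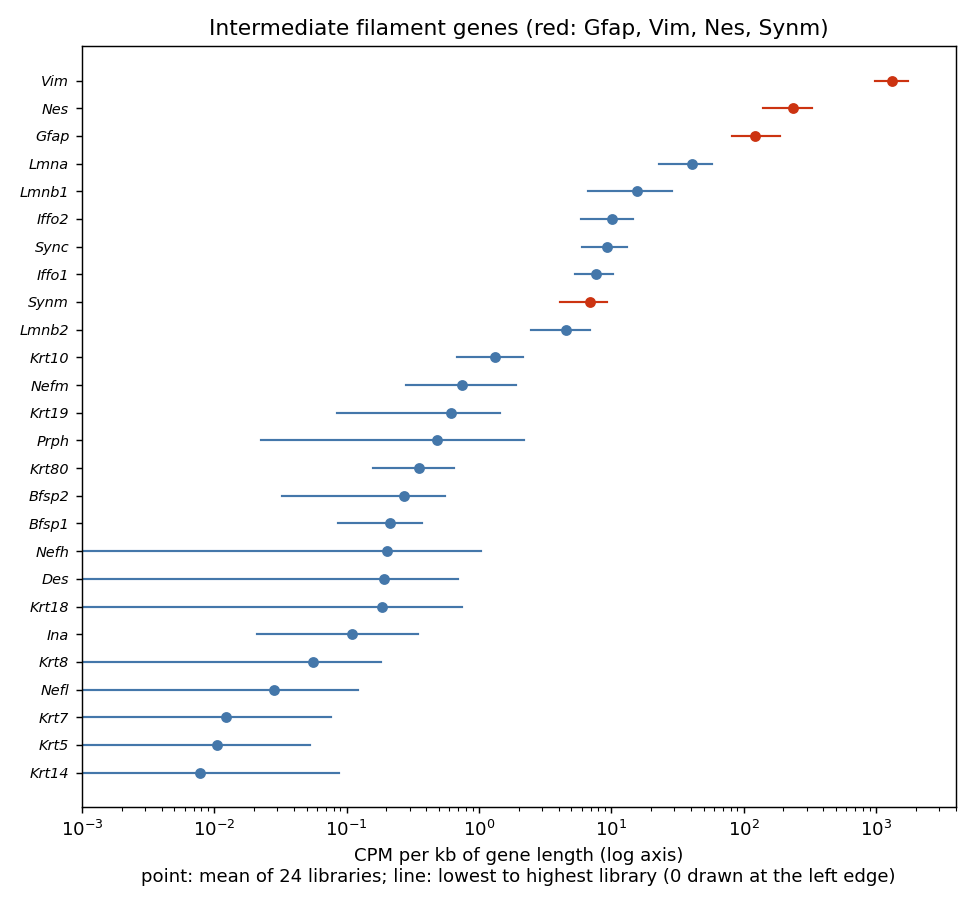
Level of 26 intermediate filament genes in CPM per kb of exonic length, on a log axis, with the mean of 24 libraries as a point and the lowest to the highest library as a line. *Vim* (1318), *Nes* (238) and *Gfap* (123) stand above the lamin gene *Lmna* (40.8). *Synm* (6.89) lies below *Lmna*, *Lmnb1*, *Iffo2*, *Sync* and *Iffo1* and above the other genes shown.

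Without a correction for GC content and length, differences between irradiated and mock-irradiated cells were seen mainly in *Gfap*, at 24 h. In mock-irradiated cells at 24 h, replicates 1 to 4 had 401, 409, 514 and 410 CPM (433 ± 53.7, mean ± SD, n = 4). After 0.1 Gy they had 493, 516, 630 and 482 CPM (530 ± 68.2), and after 2 Gy 497, 482, 798 and 489 CPM (566 ± 154). Replicate 3 was the highest library in all 3 groups, and the groups overlapped only because the mock-irradiated library of replicate 3 was as high as irradiated libraries of the other numbers. Compared number by number, *Gfap* was higher in 4 of 4 pairs after 0.1 Gy, by 0.23 to 0.34 on the log2 scale, and in 4 of 4 pairs after 2 Gy, by 0.24 to 0.63.

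Without the replicate number, these differences did not exceed the spread between libraries. The log2 fold change of *Gfap* was 0.28 (SE 0.14) at 0.1 Gy and 0.39 (SE 0.20) at 2 Gy, with adjusted p-values of 0.943 and 0.940 by the quasi-likelihood test of edgeR. Once the number entered as a block, the change at 2 Gy was 0.36 (SE 0.10), or 1.29-fold, with an adjusted p of 0.0426. At 0.1 Gy it was 0.28 (SE 0.08), or 1.21-fold, with an adjusted p of 0.0588. The blocked fit called 13.2% of all genes at 2 Gy and 6.84% at 0.1 Gy, the background against which 1 of 4 members at 2 Gy is to be read. DESeq2 with the same block called *Gfap* at both doses, with adjusted p-values of 0.0129 at 0.1 Gy and 0.0143 at 2 Gy, and it called 14.7% and 17.0% of its genes.

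These calls depended on the libraries and on the fit. For the fits that leave out a replicate number, the share of all genes called is not given here, so their adjusted p-values have no background beside them. Without replicate 3 in either group, the blocked log2 fold change was 0.28 at 2 Gy and 0.28 at 0.1 Gy, with adjusted p-values of 0.00255 and 0.0361. Leaving out replicate 1, 2 or 4 instead gave adjusted p-values of 0.157, 0.160 and 0.111 at 2 Gy, with log2 fold changes of 0.37, 0.40 and 0.41, and of 0.116, 0.292 and 0.227 at 0.1 Gy, with 0.29, 0.25 and 0.31. When the blocked fit also corrected for GC content and length, the change of *Gfap* was 0.20 (SE 0.10, adjusted p = 0.297) at 2 Gy and 0.13 (SE 0.07, adjusted p = 0.363) at 0.1 Gy. That corrected fit called 3.51% of genes at 2 Gy and 1.89% at 0.1 Gy, none of the 4 members among them. In it *Vim* at 0.1 Gy gave 0.16 (SE 0.07, adjusted p = 0.277), no smaller than *Gfap*. At 2 Gy *Synm* gave 0.18 (SE 0.08, adjusted p = 0.242) in the same fit, close to *Gfap*.

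Some markers of astrocytes and of other cells also passed in the same blocked fit, beside 13.2% of all genes. Of the 11 astrocyte markers tested, *Apoe* (log2 fold change 0.76, adjusted p = 0.00968) and *Aldh1l1* (0.34, adjusted p = 0.0376) passed at 2 Gy, and the median of the list was 0.05. Of the 12 microglia markers, *Trem2* (0.50, adjusted p = 0.0158) and *C1qa* (0.48, adjusted p = 0.0167) were higher and *P2ry12* was lower (-0.53, adjusted p = 0.0287), with a median of 0.08. Of the 8 oligodendrocyte lineage markers tested, *Cnp* was higher (0.49, adjusted p = 0.0204), and no marker of neurons, fibroblasts and vessels or neural progenitors passed. In the fit corrected for GC and length only *Apoe* (0.42, adjusted p = 0.038) and *Trem2* (0.49, adjusted p = 0.0126) of these genes still passed. At 0.1 Gy the blocked fit called *Apoe* (0.66, adjusted p = 0.0262), the microglia genes *C1qc* and *Trem2* and the oligodendrocyte lineage genes *Cnp* and *Olig1* as higher, and *Map2* and 5 of 10 proliferation markers as lower, beside 6.84% of all genes. The corrected fit there called *Apoe* and *Trem2* as higher and 2 of 10 proliferation markers as lower, and none of the other genes just named.

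The summed levels of the marker lists at 24 h did not all move one way. The summed microglia level ranged from 326 to 2337 CPM at 0 Gy and from 350 to 2754 CPM at 2 Gy, with none of the list's genes at 0 throughout. It was higher in each of the 4 pairs at both doses, as were the oligodendrocyte lineage sum (453 to 639 CPM at 0 Gy and 489 to 897 CPM at 2 Gy) and the astrocyte sum. The astrocyte sum was 5543, 2639, 5806 and 5996 CPM in replicates 1 to 4 at 0 Gy and 6957, 2894, 9246 and 6841 CPM after 2 Gy. *Apoe*, which encodes the lipid carrier apolipoprotein E, made this difference, since without it the sum was 3086, 2153, 2359 and 3113 CPM at 0 Gy and 2942, 1979, 2656 and 2835 CPM after 2 Gy, lower in all pairs but that of replicate 3. The neural progenitor sum was lower in each pair at both doses, with 1843 to 2973 CPM at 0 Gy, 1834 to 2684 CPM at 0.1 Gy and 1728 to 2636 CPM at 2 Gy. The neuron sum was lower in each pair at 0.1 Gy, and the sum of fibroblast and vessel genes was lower at 2 Gy in all pairs but that of replicate 3. The part of these lists in the *Gfap* difference was not tested.

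**Figure D2:**
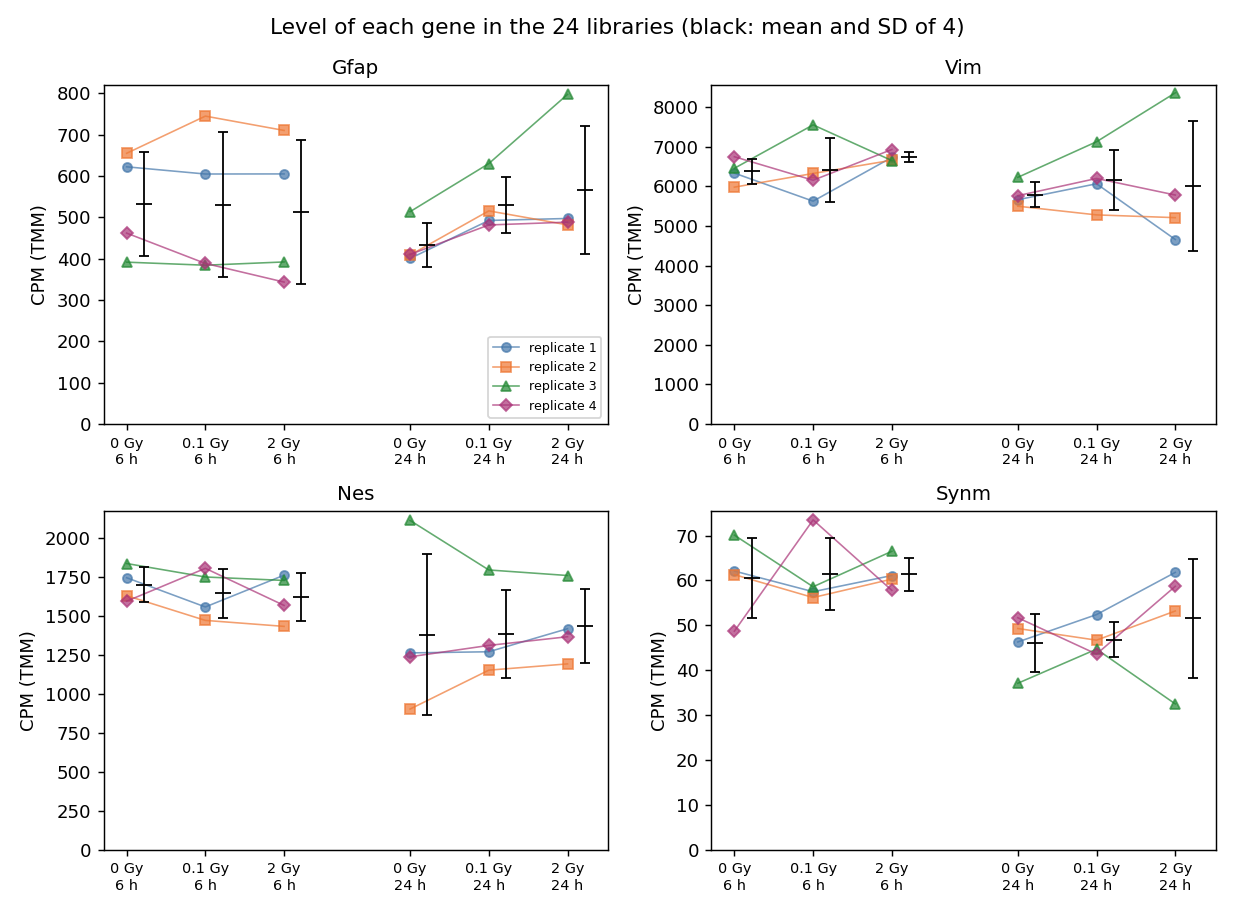
CPM of *Gfap*, *Vim*, *Nes* and *Synm* in the 24 libraries by dose and time, with a line joining libraries of the same replicate number within a time and black bars for the mean and SD of 4. *Gfap* at 24 h was higher after either dose along all 4 lines, and replicate 3 reached 798 CPM after 2 Gy while the other 3 libraries lay between 482 and 497.

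At 6 h, the means of *Gfap* at the 3 doses lay close together. Replicates 1 to 4 had 622, 655, 392 and 462 CPM at 0 Gy (533 ± 126), 605, 745, 384 and 389 CPM at 0.1 Gy (531 ± 176) and 605, 710, 392 and 344 CPM at 2 Gy (513 ± 174). Replicates 1 and 2 were high and replicates 3 and 4 low at every dose, so the spread at 6 h followed the replicate number and not the dose. The log2 fold change was -0.01 (SE 0.26) at 0.1 Gy and -0.06 (SE 0.26) at 2 Gy without the block, and -0.03 (SE 0.08) and -0.09 (SE 0.10) with it. The 24 h change minus the 6 h change was 0.30 (SE 0.30) for 0.1 Gy and 0.45 (SE 0.34) for 2 Gy, with adjusted p-values of 0.929 and 0.819. In the blocked fit it was 0.32 (SE 0.11, adjusted p = 0.0767) and 0.46 (SE 0.14, adjusted p = 0.0616). That fit called 8.87% and 6.78% of genes, none of the members included, whereas DESeq2 with the block called *Gfap* in both (adjusted p = 0.0457 and 0.0288) along with 17.4% and 19.4% of its genes. In edgeR, the change at 24 h was thus not shown to differ from that at 6 h.

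*Vim*, the most abundant member, did not differ between doses beyond the spread between libraries. At 6 h the mean was 6381 ± 318 CPM at 0 Gy, 6417 ± 815 CPM at 0.1 Gy and 6745 ± 130 CPM at 2 Gy. Compared number by number at 6 h, *Vim* was higher after 2 Gy in 4 of 4 pairs, by 0.04 to 0.16 on the log2 scale, and did not pass in the blocked fit (adjusted p = 0.751). At 24 h, replicates 1 to 4 had 5665, 5501, 6229 and 5767 CPM at 0 Gy and 4660, 5212, 8363 and 5783 CPM at 2 Gy. Replicate 3 after 2 Gy was again the highest library, and it moved opposite to replicates 1 and 2. The log2 fold change was 0.05 (SE 0.21) for 2 Gy and 0.08 (SE 0.14) for 0.1 Gy at 24 h, and 0.08 (SE 0.13) and 0.01 (SE 0.15) at 6 h, with adjusted p-values from 0.968 to 1.0.

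*Nes* also stayed within the spread between libraries. At 6 h, the means were 1699.9 ± 110 CPM at 0 Gy, 1645 ± 157 CPM at 0.1 Gy and 1621 ± 152 CPM at 2 Gy. In mock-irradiated cells at 24 h, replicates 1 to 4 had 1262, 902, 2111 and 1237 CPM, so that the highest library had more than 2-fold the lowest. After 2 Gy they had 1417, 1191, 1758 and 1365 CPM, higher than the mock-irradiated library of the same number in 3 of 4 pairs and lower in replicate 3. The log2 fold change at 24 h was 0.06 (SE 0.26) for 2 Gy and -0.01 (SE 0.26) for 0.1 Gy, with adjusted p-values of 0.973 and 0.997.

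*Synm*, the least abundant member, gave 60.6 ± 8.88 CPM at 0 Gy, 61.4 ± 8.08 CPM at 0.1 Gy and 61.4 ± 3.66 CPM at 2 Gy at 6 h. At 24 h, replicates 1 to 4 had 46.3, 49.3, 37.1 and 51.7 CPM at 0 Gy and 61.8, 53.2, 32.5 and 58.7 CPM at 2 Gy. Here replicate 3 was the lowest library at both doses, opposite to its place in the other 3 genes. The log2 fold change at 24 h was 0.17 (SE 0.22) for 2 Gy (adjusted p = 0.940) and 0.01 (SE 0.14) for 0.1 Gy (adjusted p = 0.997).

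**Figure D3:**
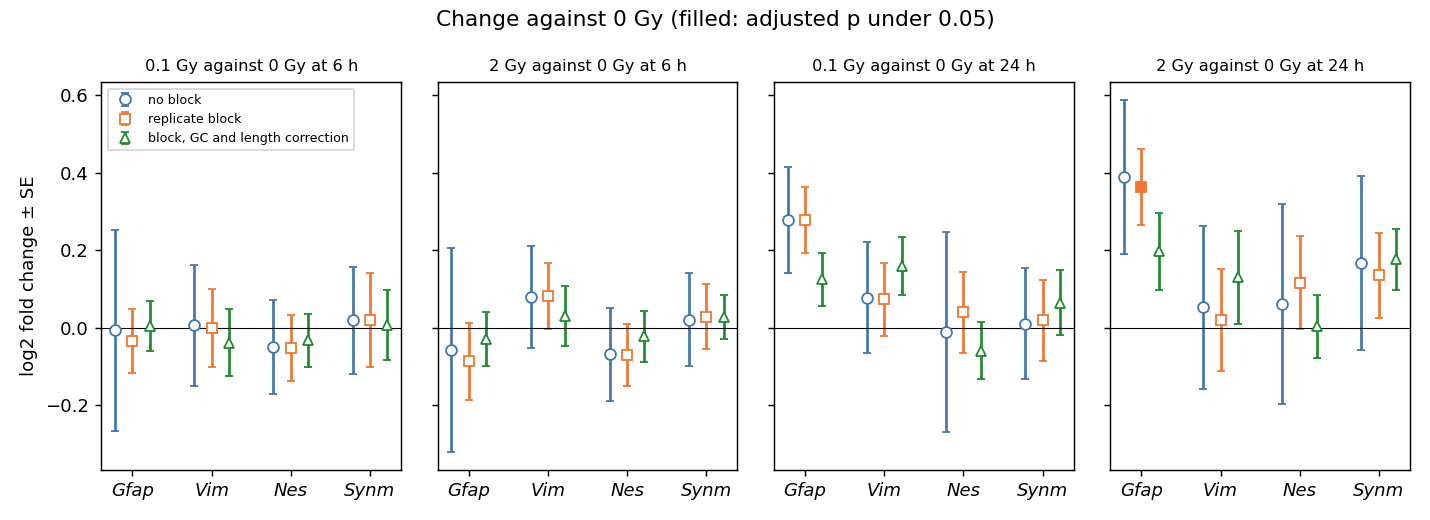
Log2 fold change (± SE) of each member against 0 Gy in the 4 dose comparisons, from edgeR without a block, with the replicate number as a block, and with the block and a correction for GC content and length. The only filled symbol, an adjusted p under 0.05, is *Gfap* at 2 Gy and 24 h in the blocked fit (0.36), where the corrected fit gives 0.20.

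Across the 6 comparisons of doses and both tests of dose against time, edgeR without the block called 0 of 4 members, and no member reached an unadjusted p under 0.05. The background was 0% of genes in all 8, with 24 to 827 genes at an unadjusted p under 0.05. DESeq2 without the block also called no member in them, and called from 0 to 103 genes. With the block, edgeR called 0% of genes at 6 h for either dose, 0.0553% for 2 Gy against 0.1 Gy at 6 h and 0% for 2 Gy against 0.1 Gy at 24 h, in each case without a member. *Gfap* did not separate the doses from each other at 24 h, with a log2 fold change of 0.10 (SE 0.18) for 2 Gy against 0.1 Gy.

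The balance of *Gfap* to *Vim*, taken per kb within each library and so independent of library scaling, was higher at 24 h after 2 Gy. The log2 ratio of *Gfap* to *Vim* was -3.65, -3.58, -3.43 and -3.64 in replicates 1 to 4 at 0 Gy and -3.06, -3.27, -3.22 and -3.40 after 2 Gy. Every 2 Gy library was above every mock-irradiated library of 24 h, but narrowly, with -3.40 in replicate 4 after 2 Gy and -3.43 in replicate 3 at 0 Gy. How many other gene ratios separate in this way was not counted. After 0.1 Gy the log2 ratio was from -3.52 to -3.19, which overlapped the mock-irradiated range but was higher in each pair of the same number. At 6 h the groups spanned -3.87 to -3.02 at 0 Gy, -4.13 to -2.92 at 0.1 Gy and -4.17 to -3.06 at 2 Gy, wider than at 24 h and overlapping throughout. Number by number, the ratio at 6 h was lower after 2 Gy in each of the 4 pairs, opposite to 24 h, with -3.18, -3.02, -3.87 and -3.70 at 0 Gy and -3.31, -3.06, -3.92 and -4.17 after 2 Gy. No test was made of this ratio, which is not independent of the GC content and length of the genes. In the blocked fit the log2 fold changes at 2 Gy and 24 h were 0.36 for *Gfap* and 0.02 for *Vim*, and with the correction they were 0.20 and 0.13.

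Time in culture was compared within each dose, 24 h against 6 h. For *Synm* the mean was lower at 24 h in all 3 doses, with log2 fold changes of -0.41 (SE 0.16) at 0 Gy, -0.41 (SE 0.12) at 0.1 Gy and -0.26 (SE 0.20) at 2 Gy. At 0.1 Gy the 4 libraries of 24 h (43.6 to 52.4 CPM) all lay below those of 6 h (56.2 to 73.5 CPM). The share of all genes that separate in this way was not counted. The adjusted p of *Synm* at 0.1 Gy was 0.0685 in edgeR, 0.0484 in DESeq2 and 0.0377 with the block. *Nes* gave -0.32, -0.28 and -0.19, *Vim* -0.16, -0.08 and -0.18, and *Gfap* -0.32, -0.03 and 0.13 for the 3 doses in the same order, none of which passed without the block.

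In edgeR without the block, 0 of 4 members passed in any of these comparisons of time, against 6.7% of genes at 0 Gy, 9.9% at 0.1 Gy and 6.95% at 2 Gy. An unadjusted p under 0.05 was reached by *Synm* at 0 Gy (0.0309) and 0.1 Gy (0.00856). At 0.1 Gy DESeq2 called 14.3% of genes, the blocked fit 25.7% and the block in DESeq2 26.4%, with *Synm* alone among the members. The block with the correction for GC and length called *Synm* (adjusted p = 0.0129) and *Nes* (adjusted p = 0.0303) at 0.1 Gy among 36.1% of genes, and *Synm* (adjusted p = 0.0418) at 0 Gy among 26.6%. A single library decided *Nes* in mock-irradiated cells, which gave -0.60 with an adjusted p of 0.0404 without the 24 h library of replicate 3. The share of all genes called in that reduced fit is not given here.

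The members did not vary together as a group. Over the 24 libraries, Pearson's r of log2 CPM was 0.60 between *Vim* and *Nes*, but 0.20 between *Gfap* and *Vim* and 0.18 between *Gfap* and *Nes*. *Synm* ran against *Gfap* (-0.29) and *Vim* (-0.22) and gave 0.11 with *Nes*. On deviations from group means, *Synm* gave -0.69 with *Vim*, -0.49 with *Gfap* and -0.37 with *Nes*, while Spearman's rho was -0.01 with *Vim*. These libraries share replicate numbers, depth and composition, so the values describe this set of libraries.

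The genes most like *Gfap* over the 24 libraries were *Clstn1* (r = 0.83), *Klc1* (0.83), *Ndn* (0.82), *Nrxn2* (0.82) and *Usp2* (0.82), among the 14331 genes with a mean of at least 1 CPM. Those most like *Vim* were *Anapc5* (0.92), *Capns1* (0.90), *Pdpn* (0.89), *Psat1* (0.86) and *Bag1* (0.85). *Capns1* encodes the small subunit of the calpain proteases and *Pdpn* the membrane protein podoplanin, carried by reactive astrocytes among other cells. *Nes* was closest to *Src* (0.92), *Clcf1* (0.92), *Eef2* (0.91), *Wwp2* (0.90) and *Csrp1* (0.90), where *Clcf1* encodes a ligand of the ciliary neurotrophic factor receptor. *Synm* was closest to *Gosr1* (0.88), *Ern1* (0.87), *Unkl* (0.87), *Slc23a2* (0.86) and *Lig3* (0.86).

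The partners of the filaments were followed in 4 lists. In edgeR without the block, no gene of any list passed in a comparison of a dose with 0 Gy, as for all genes. The blocked fit called none at 6 h, and the corrected one called *Lmnb1* and *Plk1* for 2 Gy, beside 0.719% of all genes. At 24 h after 2 Gy the blocked fit without the correction called 1 of 12 tested among the other filament genes, 2 of 17 linkers, anchors and chaperones, 5 of 18 kinases, proteases and modifying enzymes, and 3 of 23 signals and transcription factors, beside 13.2% of all genes. After 0.1 Gy it called 2 of the 18 enzymes and none of the other 3 lists, beside 6.84%. The median log2 fold changes of the lists at 2 Gy were 0.23, -0.07, -0.05 and -0.08 in that order, and that of all genes 0.00. After the correction for GC content and length they were 0.08, -0.0, -0.07 and -0.03, and that of all genes 0.01. For time in culture, 24 h against 6 h in mock-irradiated cells, edgeR without the block called 1 of 14, 3 of 17, 2 of 18 and 4 of 23 genes of these lists, beside 6.7% of all genes.

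The enzymes that passed at 2 Gy were all lower. Among them were the mitotic kinases *Aurkb*, *Cdk1* and *Plk1*, which phosphorylate vimentin when its filaments are taken apart in dividing cells. *Aurkb* had 14.3, 15.0, 20.2 and 16.4 CPM in replicates 1 to 4 of mock-irradiated cells at 24 h and 5.38, 7.72, 9.76 and 9.32 CPM after 2 Gy. These ranges did not overlap, and how many of all genes separate likewise was not counted. DESeq2 without the block called *Aurkb* (adjusted p = 0.00987) and *Cdk1* (adjusted p = 0.0482) too, with 0.725% of its genes. The blocked log2 fold change of *Aurkb* was -1.04 (SE 0.12, adjusted p = 0.00336). *Cdk1* fell from 33.0 to 43.7 CPM at 0 Gy to 21.2 to 28.5 CPM at 2 Gy (-0.65, adjusted p = 0.00937).

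*Plk1* ranged from 17.0 to 28.9 CPM at 0 Gy and from 10.5 to 17.9 CPM at 2 Gy, lower in each pair (-0.68, adjusted p = 0.0128). At 6 h it was lower after 2 Gy in each pair as well, with 18.0 to 27.9 against 25.2 to 37.4 CPM, and gave -0.48 in the blocked fit (adjusted p = 0.193) and -0.40 in the corrected one (adjusted p = 0.0353). At 24 h the mitotic kinases passed in the corrected fit as well, with -1.15 for *Aurkb*, -0.62 for *Cdk1* and -0.93 for *Plk1*. Proliferation markers moved the same way, all 10 of them passing as lower in the blocked fit, with a summed level of 484 to 579 CPM at 0 Gy and 247 to 299.5 CPM at 2 Gy. Their part in the kinase levels was not tested, and *Cdk1* is in both lists. The calpain gene *Capn2* and the kinase gene *Akt1*, the most abundant of the enzymes per kb (66.9 and 51.5 CPM per kb), did not pass.

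**Figure D4:**
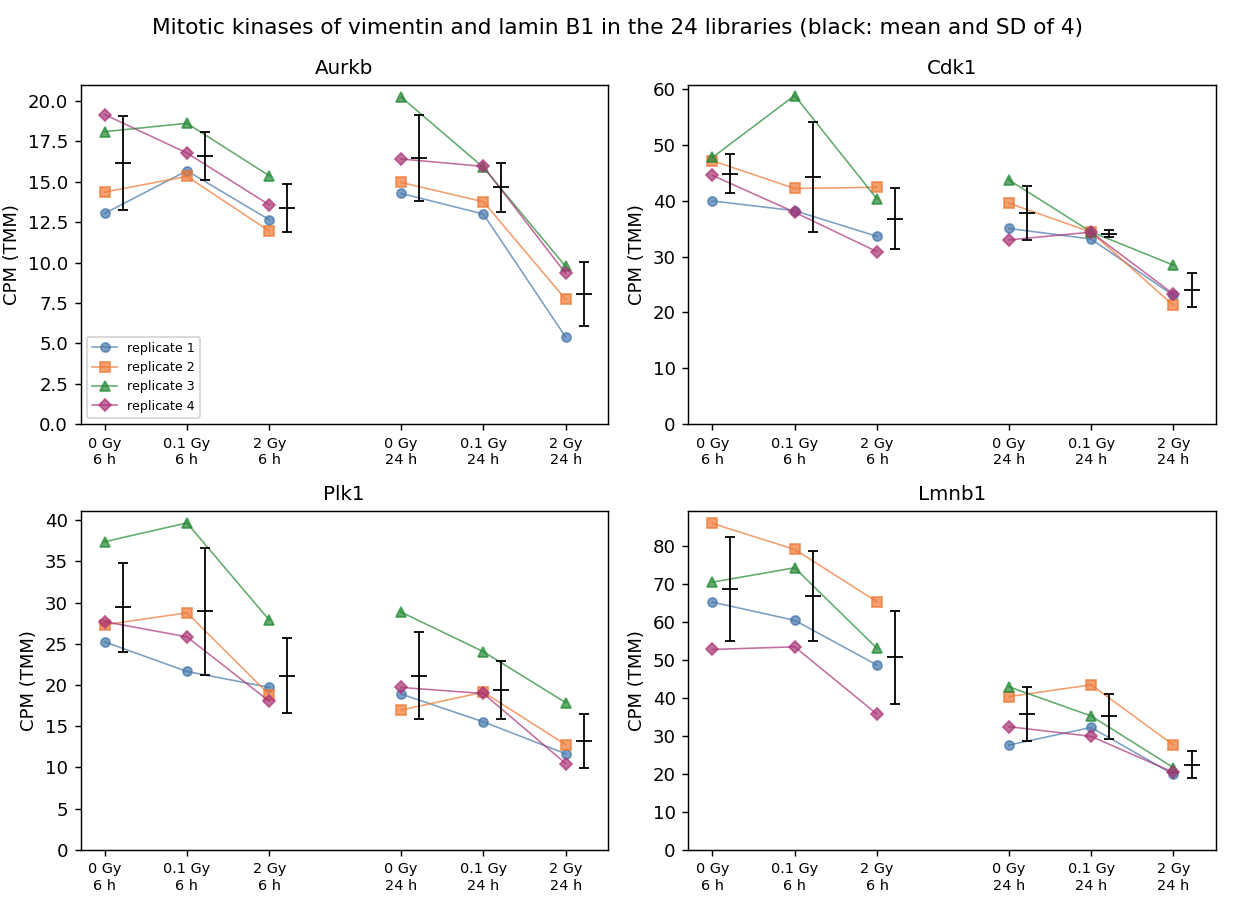
CPM of *Aurkb*, *Cdk1*, *Plk1* and *Lmnb1* in the 24 libraries by dose and time, with lines joining libraries of the same replicate number within a time and black bars for the mean and SD of 4. All 4 genes lie lower after 2 Gy than in mock-irradiated cells at 24 h along every line, with *Aurkb* at 8.04 against 16.5 CPM on average.

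Among the other filament genes, *Lmnb1*, which encodes lamin B1 of the nuclear envelope, was the gene that passed. It had 27.6, 40.3, 42.9 and 32.4 CPM in replicates 1 to 4 at 0 Gy and 19.8, 27.6, 21.6 and 20.4 CPM after 2 Gy at 24 h. It was lower in each of the 4 pairs, with a blocked log2 fold change of -0.67 (SE 0.11, adjusted p = 0.0117) and -0.81 (adjusted p = 0.00473) after correction for GC content and length. After 0.1 Gy its mean at 24 h was 35.2 ± 5.92 CPM, against 35.8 ± 7.08 CPM in mock-irradiated cells. At 6 h, replicates 1 to 4 had 65.2, 85.9, 70.4 and 52.7 CPM at 0 Gy and 48.6, 65.3, 53.0 and 35.7 CPM after 2 Gy, again lower in each pair. The log2 fold change was -0.45 with the block (adjusted p = 0.160) and -0.40 with the correction (adjusted p = 0.0112). *Lmna* did not pass at 24 h.

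Of the linkers and chaperones, *Hspb8*, a small heat shock protein gene, was higher (0.39, adjusted p = 0.0443) and *Dmd*, the dystrophin gene, lower (-0.32, adjusted p = 0.0421) at 2 Gy and 24 h. *Hspb8* followed the pattern of *Gfap* in that replicate 3 was the highest library, with 541 CPM at 0 Gy and 908 CPM at 2 Gy against at most 507 CPM in the other 3 libraries of 2 Gy. Neither passed after the correction, and *Dmd*, with a GC content of 41.5%, then turned to 0.09 (adjusted p = 0.639). *Actn1*, the most abundant of this list at 397 CPM per kb, did not pass, and the plectin gene *Plec*, whose product crosslinks vimentin to other parts of the cytoskeleton, was measured at 26.7 CPM per kb.

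Upstream of *Gfap*, the cytokine gene *Cntf* and the feedback inhibitor gene *Socs3* were higher and the kinase gene *Jak2* lower at 2 Gy and 24 h in the blocked fit. They were 3 of the 23 genes tested, close to the 13.2% of all genes. Among the other genes of JAK-STAT3 signalling in the list, *Stat3*, *Jak1*, *Il6st*, *Lifr*, *Il6*, *Lif* and *Clcf1* did not pass, with adjusted p-values from 0.0545 for *Lifr* to 0.823 for *Lif*. *Cntf* had 4.01, 3.21, 7.28 and 5.54 CPM in replicates 1 to 4 at 0 Gy and 7.15, 6.60, 10.3 and 8.80 CPM after 2 Gy (0.75, SE 0.14, adjusted p = 0.0167). *Socs3* ranged from 21.9 to 58.4 CPM and from 30.7 to 72.1 CPM, higher in each pair (0.38, adjusted p = 0.0346), and *Jak2* gave -0.43 (adjusted p = 0.0308). After the correction for GC content and length *Cntf* gave 0.71 with an adjusted p of 0.0510, *Socs3* 0.09 and *Jak2* -0.25, so none passed. *Sox2* and *Nfix*, the most abundant genes of this list (112 and 63.4 CPM per kb), did not pass in either fit.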

How the data were processed

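Poly(A)-selected RNA of 24 cultures was sequenced by the study's provider. What the authors deposited are unnormalized gene counts, with a table for each library. The aligner, the counting tool and the use of strand are not given in the sources used here. The labels gave each library's dose, time and replicate number.

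Tests were run in edgeR 4.0.16 under R 4.3.3 (TMM, filterByExpr, quasi-likelihood test, Benjamini-Hochberg adjustment over all genes tested), each fit holding only the groups it compared. The threshold for a call was an adjusted p of 0.05, with no minimum fold change. All 4 members passed the filter in all 11 comparisons. CPM values were scaled by TMM over 24 libraries, and log2 CPM used a prior count of 2. Alternatives were DESeq2 1.42.0, RLE or library size alone, no filter, a fit of all 24 libraries, a replicate block, the block with splines of 5 degrees of freedom for GC content and length, each library left out and, chosen after seeing the data, the block in DESeq2 and the blocked fit of *Gfap* without each replicate number.

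Libraries of the same number deviated together within a time (r from 0.562 to 0.962 across genes, 24 of 24 closest to their own number) but not in every group between times (lowest r -0.001). Whether a number marks the same isolation is not stated in the labels. Other genes were named by rule, as the 5 most correlated with each member, the 2 most abundant of each list and list genes that passed, up to 3 per list and comparison with the block. Cell type markers and genes overlapping a member were allowed as well. *Plec*, the filament genes below *Lmnb1* and the genes of JAK-STAT3 signalling that did not pass were named after their values were seen. *Eppk1* could not be matched. Results on some genes of the enzyme list are not reported here. The members and lists were chosen with earlier results of these data known.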

Additional observations from a re-analysis of the deposited data

Results flagged for a closer look

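In 3 of the 24 combinations of member and group, 1 library stood apart from the other 3 by more than Dixon's critical value for 4 samples, and chance flags about 1 in 20 groups. *Gfap* in mock-irradiated cells at 24 h had 514 CPM in replicate 3 against 401 to 410 CPM, a gap of 0.913 of the group's range. After 2 Gy at 24 h it had 798 CPM in replicate 3 against 482 to 497 CPM, a gap of 0.951 of the range. *Synm* after 0.1 Gy at 6 h had 73.5 CPM in replicate 4 against 56.2 to 58.6 CPM, a gap of 0.859 of the range.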

How the results depend on the processing

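The dose results for *Gfap* at 24 h kept their direction under all 8 alternative settings (log2 fold change from 0.125 to 0.371 at 0.1 Gy and from 0.197 to 0.43 at 2 Gy) and with each library left out (from 0.196 to 0.366 and from 0.192 to 0.469), but passed only in fits with a replicate block. In place of 0 members without the block, the replicate block called 1 member for 2 Gy against 0 Gy at 24 h, and in DESeq2 1 member each for both doses against 0 Gy at 24 h and for both tests of dose against time. The block changed no other call of a member within a time. For 24 h against 6 h at 0.1 Gy, 1 member was called with DESeq2, with the block and with the block in DESeq2, and 2 members with the block and GC correction, which called 1 member at 0 Gy. Leaving out single libraries gave 0 to 1 member for 24 h against 6 h at 0 Gy, without the share of all genes called beside it. Replicate numbers do not pair all libraries between times. The cause of these changes was not tested.

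Small differences changed sign. For 0.1 Gy at 6 h, *Gfap* gave 0.003 in DESeq2, 0.001 with RLE, 0.01 with no filter and 0.005 with the block and GC correction, and *Vim* -0.001 with the block and -0.038 with the GC correction. For 0.1 Gy at 24 h, *Nes* gave 0.04 with the block, 0.084 with library size alone, 0.022 with no filter, 0.003 with all 24 libraries and 0.047 with the block in DESeq2. For 24 h against 6 h at 0.1 Gy, *Gfap* gave 0.029 with the block, 0.071 with library size alone, 0.041 with the GC correction and 0.033 with the block in DESeq2, and *Vim* 0.016 with library size alone. *Dmd* gave 0.094 with the block and GC correction.

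With 1 library left out, values that changed sign ranged as follows. At 0.1 Gy and 6 h they ran from -0.22 to 0.124 for *Gfap*, from -0.076 to 0.065 for *Vim* and from -0.075 to 0.101 for *Synm*. At 2 Gy and 6 h they ran from -0.25 to 0.087 for *Gfap* and from -0.068 to 0.098 for *Synm*. At 24 h, *Nes* ran from -0.169 to 0.265 and *Synm* from -0.083 to 0.082 for 0.1 Gy, and *Vim* from -0.133 to 0.147 and *Nes* from -0.097 to 0.331 for 2 Gy. *Gfap* ran from -0.251 to 0.158 and from -0.099 to 0.186 for 2 Gy against 0.1 Gy at 6 h and 24 h. For 24 h against 6 h, *Gfap* ran from -0.15 to 0.206 and *Vim* from -0.142 to 0.023 at 0.1 Gy, and *Gfap* from -0.071 to 0.347 at 2 Gy.

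Of the 5 genes most like each member, Spearman's rho shared 4 for *Gfap*, 2 for *Vim*, 1 for *Nes* and 1 for *Synm*, and deviations from group means shared 2 for *Gfap*, 2 for *Vim*, 1 for *Nes* and 0 for *Synm*, so these names depend on the measure. With 4 libraries per group, the difference in *Gfap* at 24 h was within the spread between libraries without the block.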
